A study of Mus musculus with 8 samples.

Results

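The receptors that bind the constant (Fc) part of immunoglobulins were followed in cells of a mouse tumor. They comprised 6 genes of 35975 with summed values. The 6 were listed by name and not by a rule on measured values, although earlier results of these data were known. Fcgr1, Fcgr3 and Fcgr4 encode activating Fc gamma receptors, Fcgr2b encodes the inhibitory one, Fcer1g encodes the signaling chain that the activating receptors share, and Fcgrt encodes the heavy chain of the neonatal Fc receptor. All 6 passed the filter on low counts that left 13343 genes for testing. The tumors were syngeneic fibrosarcomas implanted under the skin of wild-type C57BL/6 mice, and neither fraction carried a transgene, a deletion or a drug treatment per the labels. The age of the mice was not given. After digestion and lysis of red cells, a magnetic column was used to divide the cells into an iron positive eluate, which it had retained, and an iron negative flowthrough. RNA of both fractions was sequenced in bulk, with 4 libraries per fraction, and the tags 3L, 3R, 4R and 5L each occurred once per fraction.

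The libraries held 19.04 to 24.31 M estimated counts. Macrophages are named in the title of the series, yet no sort with antibodies is described. Nothing in the labels says that the tags stand for separate animals, so the p-values rest on the spread among these libraries, which may be technical. All 10 macrophage markers were detected in every library, and their summed abundance was 31136 to 32684 TPM (transcripts per M transcripts, a unit per length) in iron negative and 24804 to 31597 TPM in iron positive libraries. Endothelial and fibroblast markers were higher in the iron positive fraction: the 9 endothelial markers summed to 19.7 to 32.9 TPM in iron negative and 65.2 to 680 TPM in iron positive libraries, and the 8 fibroblast markers to 37.5 to 132 TPM and 176 to 1847 TPM. The iron positive libraries of tags 3R and 4R held the most of both lists. Whether the fibroblast markers came from tumor cells or from other cells was not tested. Pericyte and smooth muscle markers (7.94 to 22.4 against 26.4 to 167 TPM) and skeletal muscle markers (5.27 to 5.72 against 22.3 to 68.2 TPM) also summed to more in iron positive libraries. The sums of monocyte markers overlapped (309 to 714 against 418 to 679 TPM). The 6 T cell markers summed to 16.3 to 27.5 TPM and 11.03 to 17.6 TPM, with 1 lower and none higher. In bulk RNA, fewer cells of a type and less RNA per cell cannot be told apart.

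Activating Fc gamma receptors bind immunoglobulin G on coated particles and signal through the immunoreceptor tyrosine-based activation motif (ITAM) of the Fcer1g chain, which Src family kinases phosphorylate and which then recruits the kinase Syk. Fcgr2b carries an immunoreceptor tyrosine-based inhibition motif (ITIM) in its own tail and recruits the phosphatase Inpp5d (SHIP-1) instead. The balance of the 2 kinds sets the threshold for phagocytosis and cytokine release by macrophages, whereas the neonatal receptor pairs with B2m, binds immunoglobulin G and albumin at acidic pH in endosomes and returns them to the cell surface.

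The stretches that code for the opposed signaling motifs are shown because they separate the activating chain from the inhibitory receptor. They were read from GENCODE transcripts of the GRCm38 build (the same assembly as mm10), 5′ to 3′, and capitals mark the tyrosine codons.
ITAM of Fcer1g: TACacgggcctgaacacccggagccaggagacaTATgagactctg
ITIM of Fcgr2b: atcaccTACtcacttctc
The first stretch covers codons 65 to 79 of 86 in Fcer1g-201, on the minus strand between chr1:171229889-171230072 with an intron inside it. The second covers codons 270 to 275 of 293 in Fcgr2b-202, on the minus strand at chr1:170961071-170961088. The same search found no ITAM in the main coding transcripts of Fcgr1, Fcgr3, Fcgr4 or Fcgrt.

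Of the 6 genes, 4 lie on chromosome 1. Fcgr2b occupies chr1:170958617-170976547 (minus strand), Fcgr4 chr1:171018920-171029761 (plus strand), Fcgr3 chr1:171051174-171064935 (minus strand) and Fcer1g chr1:171229572-171234365 (minus strand). Fcgr1 lies at chr3:96282909-96293969 and Fcgrt at chr7:45092990-45103851, both on the minus strand. No other summed gene overlapped any of them.

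Fcgr2b and Fcgr3 share part of their coding sequence, which bears on how far their values can be separated. Over 788 aligned coding bases, 80.6% were identical, against 63.1% for Fcgr3 and Fcgr4 and 61.4% for Fcgr1 and Fcgr3. The longest run that was identical in both spans 129 coding bases (positions 278 to 406 of the Fcgr2b-202 and 263 to 391 of the Fcgr3-201 coding sequence) and is shown since a read from inside it fits either gene.
shared by Fcgr2b and Fcgr3: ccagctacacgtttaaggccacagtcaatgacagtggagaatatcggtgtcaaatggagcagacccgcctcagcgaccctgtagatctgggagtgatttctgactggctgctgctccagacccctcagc
Of the 31-base words of Fcgr2b-202, 233 of 1432 (16.3%) also occurred in Fcgr3, and of those of Fcgr3-201, 233 of 1317 (17.7%) also occurred in Fcgr2b. No word of Fcgr1-201, Fcer1g-201 or Fcgrt-201 occurred in another gene, and 17 of 1226 (1.39%) did so for Fcgr4-201. The values of Fcgr2b and Fcgr3 taken singly are therefore uncertain to the extent that the authors' quantification divided such reads, and their sum is given beside them.

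Levels were compared between genes in TPM, which is per transcript length. Fcer1g was the most abundant, at 2341 ± 56.3 TPM in iron negative and 1978 ± 166 TPM in iron positive libraries (SD, n = 4 each). Fcgr3 (784 ± 55 and 792 ± 139 TPM) and Fcgr2b (773 ± 39.1 and 815 ± 152 TPM) came next and did not differ from each other beyond their spread. Fcgr1 (184 ± 11.6 and 154 ± 11.4 TPM), Fcgrt (174 ± 32.3 and 180.1 ± 28.8 TPM) and Fcgr4 (151 ± 3.94 and 140.3 ± 19.9 TPM) were the least abundant. Among these Fcgrt overlapped both neighbours in either fraction, while Fcgr1 lay above Fcgr4 in every iron negative library (171 to 198 against 147 to 156 TPM) and overlapped it in the iron positive ones (145 to 169 against 124 to 169 TPM).

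Between the fractions, 2 of the 6 genes were lower in iron positive libraries and none was higher, nor did any reach an unadjusted p under 0.05 in that direction. DESeq2 called the same 2 lower and none higher, whereas limma voom called none in either direction (adjusted p = 0.0631 for Fcgr1 and 0.0664 for Fcer1g). Of all 13343 genes tested, DESeq2 called 1070 lower and 1703 higher, and limma voom 273 lower and 189 higher. The lower genes were Fcgr1, the high-affinity receptor for immunoglobulin G, and Fcer1g, the chain through which it signals. The call rule was a Benjamini-Hochberg adjusted p under 0.05 from the quasi-likelihood test of edgeR over all genes tested, and by that rule 5.21% of all genes were lower and 8.49% were higher in the iron positive fraction. Fold changes are log2 values, iron positive minus iron negative, with their SE, and levels of a gene across libraries are counts per M counts (CPM) after TMM scaling (trimmed mean of M values), in the tag order 3L, 3R, 4R and 5L.

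Fcgr1 measured 317, 307, 309.5 and 288 CPM in the iron negative libraries and 268, 221, 252 and 262 CPM in the iron positive ones. Every iron positive library lay below every iron negative one, and each lay below its partner of the same tag. Fcgr1 fell by 0.28 ± 0.07 on the log2 scale (adjusted p = 0.0375), a change in mean CPM of -17.9%.

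Fcer1g gave 843, 790.1, 757 and 790.3 CPM in iron negative and 698, 575, 634 and 683 CPM in iron positive libraries. Here too the fractions did not overlap and the iron positive library was the lower one in 4 of 4 tags. Fcer1g fell by 0.30 ± 0.08 on the log2 scale (adjusted p = 0.0440), a change in mean CPM of -18.6%. Among all genes tested, 10.3% had fractions that did not overlap with the iron positive one lower, and 11.2% with it higher.

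**Figure D1:**
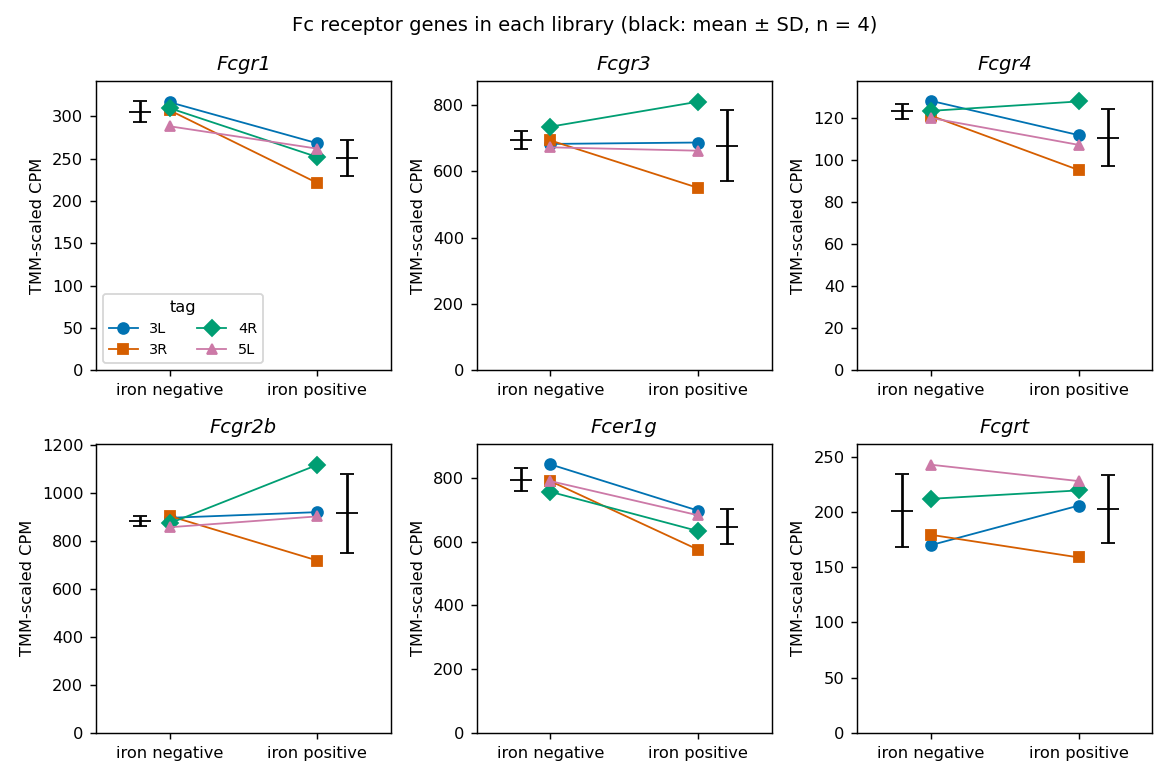
TMM-scaled CPM of the 6 Fc receptor genes (y axes, from 0) in iron negative and iron positive libraries, with lines joining libraries of the same tag and black marks for the mean ± SD (n = 4). Fcgr1 and Fcer1g lie lower in every iron positive library (221 to 268 against 288 to 317 CPM, and 575 to 698 against 757 to 843 CPM), while the other genes overlap between fractions and tags 3R and 4R take the extremes of the iron positive libraries for Fcgr2b, Fcgr3 and Fcgr4.

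The other activating receptors did not pass the test. Fcgr3, a low-affinity receptor for immunoglobulin G complexes, measured 682, 693, 734 and 672 CPM in iron negative and 686, 549.8, 809 and 662 CPM in iron positive libraries. The iron positive values lay on both sides of the iron negative ones, with tag 3R lowest and tag 4R highest, and the log2 fold change was -0.04 ± 0.11 (adjusted p = 0.849). Fcgr4, the receptor that binds several immunoglobulin G subclasses on mouse myeloid cells, measured 128, 120.9, 123 and 119.8 CPM against 112, 95.1, 128 and 107 CPM. It was lower in 3 of 4 tags and higher in 4R, at -0.16 ± 0.08 (adjusted p = 0.252), so a decrease was not separated from the spread.

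The inhibitory receptor Fcgr2b measured 895, 903, 873 and 856 CPM in iron negative libraries, a narrow range, and 919, 718, 1116 and 901 CPM in iron positive ones. The iron positive libraries straddled the iron negative range, again with 3R lowest and 4R highest, and the log2 fold change was 0.05 ± 0.12 (adjusted p = 0.815). Counted as 1 feature, Fcgr2b and Fcgr3 together gave 0.01 ± 0.12 (adjusted p = 0.959), likewise without a call. Leaving out the iron positive library of tag 4R turned the sign of Fcgr2b (-0.06), and leaving out that of 3R turned the sign of Fcgr3 (0.05).

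Fcgrt, the neonatal receptor chain, measured 169.9, 179, 212 and 243 CPM in iron negative and 206, 159, 219 and 228 CPM in iron positive libraries. Its spread was of the same size in both fractions (SD 33.1 and 30.8 CPM), 2 tags were higher and 2 lower, and the log2 fold change was 0.01 ± 0.14 (adjusted p = 0.959).

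The calls for Fcgr1 and Fcer1g lay close to the threshold. With the tag as a replicate block the same 2 genes were lower (Fcgr1 -0.29 ± 0.07, adjusted p = 0.0283; Fcer1g -0.30 ± 0.07, adjusted p = 0.0256), in a fit that called 9.39% of all genes lower and 12.8% higher. Neither gene passed when any of the iron negative libraries was left out, or the iron positive library of tag 4R, and Fcer1g did not pass without that of 3R. Over these 8 fits the adjusted p ranged from 0.0391 to 0.113 for Fcgr1 and from 0.0427 to 0.128 for Fcer1g, while the log2 fold changes stayed between -0.32 and -0.23 and between -0.34 and -0.24. The same omissions of iron negative libraries left no call among all genes for tags 3L, 3R and 4R, and 26 higher and 12 lower genes for 5L.

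Both decreases were close in size to the median fold change of the 10 macrophage markers, -0.31 on the log2 scale in the main fit. Of these markers 3 were lower and none was higher, and 2 had positive fold changes. Their summed TPM overlapped between the fractions (31136 to 32684 in iron negative and 24804 to 31597 in iron positive libraries). The libraries were therefore also scaled so that the geometric mean of these markers, none of which is an Fc receptor, was equal in all of them. That scaling moved the median of all genes to 0.26 and called 0.187% of genes lower and 17.3% higher. Under it Fcgr1 was at -0.03 ± 0.08 (adjusted p = 0.758) and Fcer1g at -0.04 ± 0.07 (adjusted p = 0.661), and none of the 6 genes passed. Fcgr2b was then at 0.30 ± 0.11 (adjusted p = 0.0919), Fcgrt at 0.26 ± 0.13 (adjusted p = 0.178), Fcgr3 at 0.21 ± 0.11 (adjusted p = 0.197) and Fcgr4 at 0.10 ± 0.10 (adjusted p = 0.457). Relative to the shift of all genes, Fcgr2b and Fcgrt sat close to the median gene and Fcgr1 and Fcer1g below it, as in the main fit. Such a scaling shifts all genes nearly alike, so the positive signs of Fcgr3 and Fcgr4 under it follow from the shift.

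**Figure D2:**
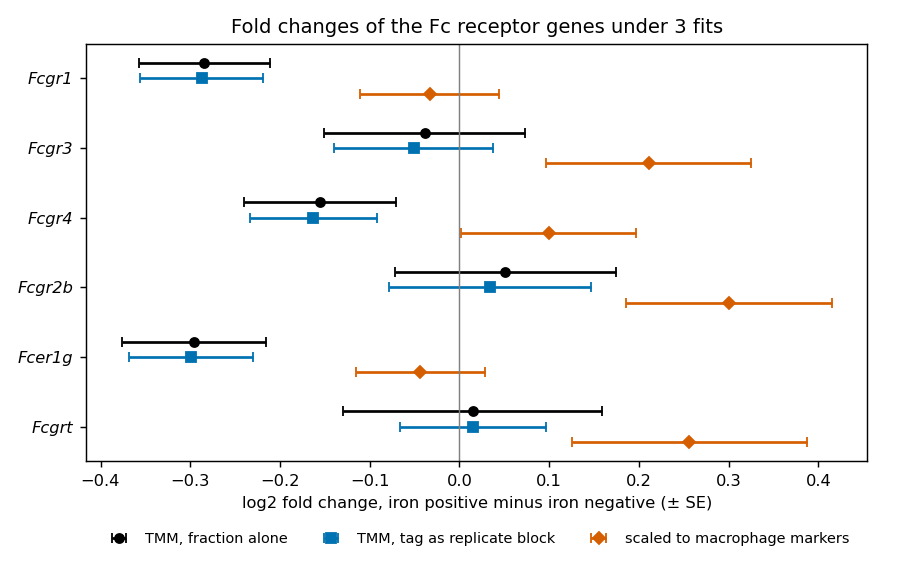
Log2 fold change (x axis, iron positive minus iron negative, ± SE) of the 6 Fc receptor genes (rows) under TMM scaling with the fraction alone, under TMM with the tag as a replicate block, and after scaling to 10 macrophage markers. Fcgr1 and Fcer1g sit near -0.3 in the first 2 fits and near 0 in the last, where all genes shift upward together.

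Ratios within a library do not depend on such scaling. The sum of Fcgr1, Fcgr3 and Fcgr4 over Fcgr2b, the activating to inhibitory ratio in TPM, was 1.42, 1.37, 1.54 and 1.46 in iron negative and 1.34, 1.41, 1.30 and 1.31 in iron positive libraries. It was lower in 3 of 4 tags, and only the iron positive library of 3R reached into the iron negative range. The difference of the log2 means was -0.11 (exact 2-sided permutation test, p = 0.0571, and 0.152 after Benjamini-Hochberg adjustment over the 4 ratios tested). The smallest p this test allows is 0.0286, and it does not use the pairing by tag. Taken from TMM-scaled CPM, which is not per length, the difference was -0.16 at that smallest p of 0.0286 in the same exact test, without adjustment.

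The ratio of Fcer1g to the 3 activating receptors was 2.20, 2.11, 1.88 and 2.22 in iron negative and 1.91, 1.91, 1.51 and 2.04 in iron positive libraries. It was lower in 4 of 4 tags, but the iron negative library of 4R lay within the iron positive range, and the difference of -0.19 did not pass (exact permutation p = 0.114, adjusted 0.152). Without the iron positive library of 4R it was -0.10, and over the omissions of 1 library it ranged from -0.25 to -0.10. Fcgr2b over Fcgr3 stayed near parity, between 0.917 and 1.04 in iron negative and between 1.001 and 1.05 in iron positive libraries, with a difference of 0.06 (exact permutation p = 0.257), or 0.02 without the iron negative library of 4R.

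Fcgrt over its light chain B2m was 0.0225, 0.0284, 0.0340 and 0.0356 in iron negative and 0.0367, 0.0321, 0.0456 and 0.0402 in iron positive libraries. The ratio was higher in 4 of 4 tags with a difference of 0.37 (exact permutation p = 0.114, adjusted 0.152). Without the iron negative library of 3L the difference was 0.24, and over the omissions of 1 library it ranged from 0.24 to 0.46. B2m itself fell by 0.37 ± 0.09 on the log2 scale (edgeR adjusted p = 0.0363), from 2680 to 3185 CPM in iron negative to 2059 to 2342 CPM in iron positive libraries, and did not pass after scaling to macrophage markers (-0.11, adjusted p = 0.375). Of the 8 fits that each left out 1 library, it passed only in that without iron positive 5L.

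**Figure D3:**
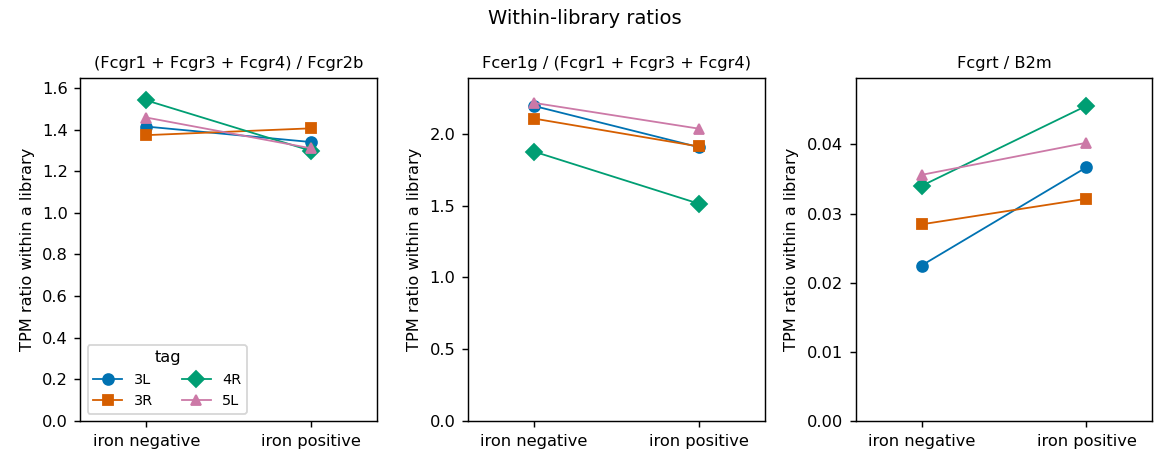
Ratios of summed TPM within each library (y axes, from 0), with lines joining libraries of the same tag. The activating to inhibitory ratio is 1.37 to 1.54 in iron negative and 1.30 to 1.41 in iron positive libraries, and the ratios of Fcer1g to activating receptors and of Fcgrt to B2m move down and up in all 4 tags with ranges that overlap.

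The make-up of the Fc gamma receptor transcripts was dominated by the pair with shared sequence. Of the summed TPM of the 4 receptors, Fcgr2b took 40.9 ± 1.18% and 42.8 ± 0.875% and Fcgr3 took 41.4 ± 1.14% and 41.6 ± 0.390% in iron negative and iron positive libraries (SD, n = 4). Fcgr1 took 9.92% or less and at least 9.42% in each iron negative library and 7.22% to 9.13% in the iron positive ones, with means of 9.70 ± 0.252% and 8.22 ± 0.783%. Fcgr4 took 7.97 ± 0.244% and 7.41 ± 0.271%. The summed level of the receptors was 1892 ± 98.1 TPM in iron negative and 1901 ± 321 TPM in iron positive libraries, so the share of Fcgr1 was lower while the total did not differ beyond its spread. No test was run on these shares, which use the same values as the tests above.

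**Figure D4:**
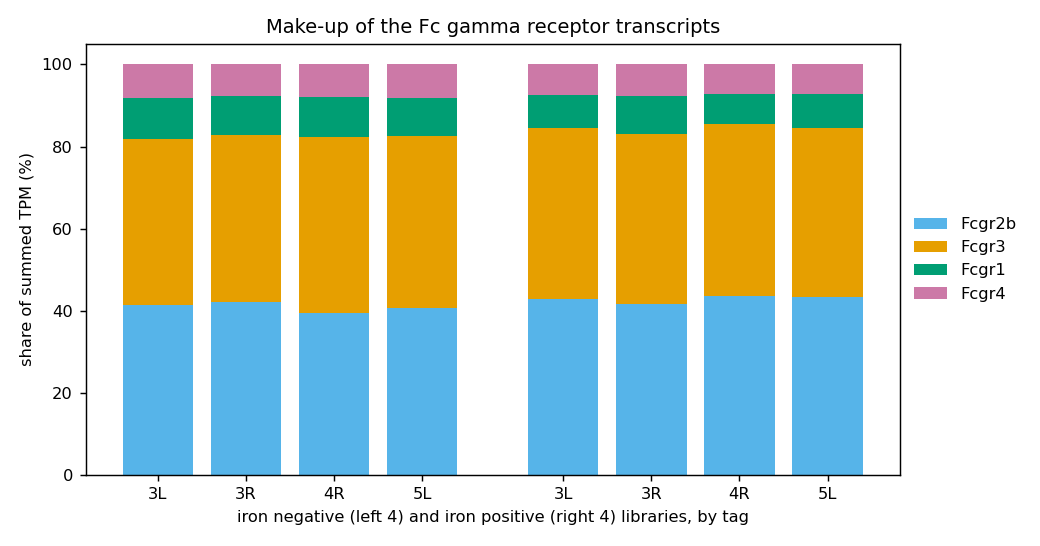
Share of each Fc gamma receptor gene in their summed TPM (y axis, percent, stacked from 0 to 100) in the 4 iron negative and 4 iron positive libraries, by tag. Fcgr2b and Fcgr3 take about equal parts in every library and the Fcgr1 part is 9.42% to 9.92% on the left and 7.22% to 9.13% on the right.

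At the level of transcripts, each gene was carried by 1 main form. Fcgr4-201 held all of its gene's TPM, Fcer1g-201 98.6%, Fcgr3-201 86.4%, Fcgr1-201 85.6%, Fcgr2b-202 73.1% and Fcgrt-201 71.2% (means of 8 libraries). Further forms above 5% were Fcgr3-204 (10.9%), Fcgrt-203 (22.0%), Fcgr1-202, annotated as a target of nonsense-mediated decay (14.4%), Fcgr2b-201 (13.5%) and Fcgr2b-207, a retained-intron form (7.53%). Fcgr2b-201 codes for the longer tail that is known to keep the receptor at the surface of B cells, through an exon of 141 bases at chr1:170963325-170963465 that Fcgr2b-202, the form of myeloid cells, lacks. It is shown because it is the coding exon that separates the 2 forms. The transcripts also differ in length (3544 bases for Fcgr2b-201 and 1462 for Fcgr2b-202), so the share of Fcgr2b-201 does not measure this exon alone.
exon of Fcgr2b-201: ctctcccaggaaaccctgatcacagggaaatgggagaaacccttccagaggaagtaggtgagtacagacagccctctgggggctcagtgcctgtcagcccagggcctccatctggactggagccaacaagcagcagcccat
The share of Fcgr2b-201 was 12.4%, 11.9%, 13.9% and 13.3% in iron negative and 14.1%, 14.1%, 15.0% and 13.4% in iron positive libraries. The iron positive library was higher in each of the 4 tags, by little in 5L, with means of 12.9 ± 0.903% and 14.1 ± 0.641% (SD, n = 4), and the ranges overlapped. No test was run on this share. The B cell markers Ms4a1, Cd79a, Pax5, Blk and Mzb1 were all under 1 TPM in every library, and the summed list of B and plasma cell markers was 6.23 to 8.66 TPM in iron negative and 4.59 to 8.98 TPM in iron positive libraries. Fcgr1-202 varied from 7.88% (iron positive 3L) to 18.2% (iron positive 4R) of its gene with no separation of the fractions. Counted on protein-coding transcripts only, neither Fcgr1 (-0.27, adjusted p = 0.0601) nor Fcer1g (-0.28, adjusted p = 0.0550) passed the test of edgeR.

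The promoters were searched for 2 known patterns of myeloid Fc receptor genes. RefSeq (GRCm38.p6) gave 7 start sites for the 6 genes, since Fcgr3 has 2 of them, and 250 bases before each start were read. The core bound by the myeloid factor PU.1, GAGGAA on either strand, occurred before Fcgr1, Fcgr3 and Fcgr4 and not before Fcgr2b, Fcer1g or Fcgrt. It occurred in 23.3% of all 32851 promoter windows. Its reverse complement is in capitals below, 5′ to 3′ on the strand of the gene.
Fcgr1: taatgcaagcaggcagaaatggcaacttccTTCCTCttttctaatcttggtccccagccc
Fcgr3: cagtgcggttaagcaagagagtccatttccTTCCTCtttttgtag
Fcgr4: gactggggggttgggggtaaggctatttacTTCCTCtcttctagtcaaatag
The capitals begin 55, 15 and 22 bases before the start, at chr3:96293995-96294054, chr1:171059395-171059439 and chr1:171018874-171018925 for the stretches shown. The pattern TTCNNNGAA of an interferon gamma activated site occurred in 7.02% of all windows (either strand, the same word read both ways) and of these genes only before Fcgr1, where it begins 109 bases before the start.
Fcgr1: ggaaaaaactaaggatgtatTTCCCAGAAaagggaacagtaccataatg
That stretch covers chr3:96294050-96294098. A match describes letters in these windows only, and so does the lack of one.

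Across the 8 libraries, Fcgr1 and Fcer1g varied together (Pearson r = 0.96 for log2 CPM), and Fcgr2b and Fcgr3 did so (r = 0.92), while Fcgr1 and Fcgr2b did not (r = 0.23). These values describe libraries that share fractions, tags and, for Fcgr2b and Fcgr3, reads, and they carry no test. Among 9873 genes with at least 5 CPM on average, the profile of Fcgr1 was most like those of Sirpa (r = 0.989), Nckap1l (0.988) and Cd300c2 (0.988). Fcer1g was most like Laptm5 (0.992), Vac14 (0.992) and Rhog (0.991). Fcgr2b was most like Atg5 (0.970), Mrc1 (0.962), which encodes the mannose receptor, and Tmem71 (0.939). Fcgr3 was most like Tatdn1 (0.964), Copb1 (0.961) and Adck1 (0.947), Fcgr4 like Lmo2 (0.932), Arhgap24 (0.931) and Dhrs1 (0.922), and Fcgrt like Ubash3b (0.964), Ap2a2 (0.956) and Upf1 (0.952). No gene was shared between these lists.

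Around the receptors, 84 genes in 8 pathway lists were followed. The kinase cascade, the phagocytic cup and oxidase, and the inhibitory phosphatases and adaptors act downstream of the receptors. The other lists held immunoglobulin receptors and chains, receptors that pair with Fcer1g, other ITAM adaptors, and the partner and ligand of the neonatal receptor. Of the 84 genes 61 could be tested, with 25 lower and 2 higher in the iron positive fraction. The lower ones include Fcrls, Ighm and B2m and the higher ones Clec4d, which are not from the downstream lists. The median log2 fold change of the 61 was -0.23 beside -0.01 for all genes tested. As for Fcgr1 and Fcer1g, these counts moved with the scaling: on macrophage markers, 1 was lower and 7 were higher. That scaling called 0.187% of all genes lower and 17.3% higher. When any of the iron negative libraries was left out, no call was left in either direction. Without the iron positive library of 4R 10 were lower and none higher, while of all 13461 genes tested 214 were lower and 399 higher. Without that of 3R 15 were lower and 5 higher, while of all 13458 genes tested 568 were lower and 1141 higher.

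Of the Src family and Syk cascade, which phosphorylates the ITAM and passes its signal on, 10 of 20 tested genes were lower and none was higher (median -0.27). Vav1, an exchange factor for Rac, went from 274 to 285 CPM in iron negative libraries to 198 to 239 CPM in iron positive ones (-0.37 ± 0.07, adjusted p = 0.0183). The kinase Src (-0.57 ± 0.11, adjusted p = 0.0184) and the adaptor Blnk (-0.46 ± 0.10, adjusted p = 0.0209) fell with it, and their fractions did not overlap. Syk itself, the kinase that binds the phosphorylated ITAM, was at -0.05 ± 0.10 (adjusted p = 0.773) and is named after its value was seen. Without the iron positive library of 4R, 4 of the 20 were lower. With limma voom 6 of the 20 were lower, beside 273 of all 13343 genes. Scaled to macrophage markers, none of the 20 was lower, 2 were higher and the median was -0.0165.

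Of the phagocytic cup and the NADPH oxidase, 8 of 14 genes were lower and all 14 had negative fold changes (median -0.26). Cybb, the catalytic subunit of the oxidase, measured 785, 748, 707 and 612 CPM in iron negative and 504, 474, 425 and 541 CPM in iron positive libraries, without overlap (-0.55 ± 0.10, adjusted p = 0.0184). Coro1a, an actin-binding protein of leukocytes, fell by 0.52 ± 0.11 (adjusted p = 0.0255), Rac1 by 0.27 ± 0.06 and Wipf1, a partner of the Wiskott-Aldrich protein, by 0.24 ± 0.06 (adjusted p = 0.0296 for both). Leaving out the iron positive library of 3L, 3R or 4R left 5, 3 and 2 lower genes. Rac1 was not among them without 3L or 4R, nor Wipf1 without any of the 3. Scaled to macrophage markers, none of the 14 passed and the median was -0.00370.

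Of 10 inhibitory phosphatases and adaptors, 9 had negative fold changes and 4 were lower: Inpp5d, the phosphatase recruited by Fcgr2b (-0.35 ± 0.08, adjusted p = 0.0318), Ptpn6 (-0.36 ± 0.07, adjusted p = 0.0209), Ptprc (-0.48 ± 0.09, adjusted p = 0.0184) and Dok3 (-0.37 ± 0.08, adjusted p = 0.0220). Ptprc encodes CD45, which also activates Src kinases. The ubiquitin ligase Cblb was higher (0.74 ± 0.20, adjusted p = 0.0458), at 15.2 to 18.7 CPM in iron negative and 19.2 to 38.8 CPM in iron positive libraries, and did not pass without the iron positive library of 3L or 4R or without any iron negative one. The median of the list was -0.18, and without the iron positive library of 4R 2 of its genes were lower. Scaled to macrophage markers, none of the 10 was lower, 1 was higher and the median was 0.0763. Inpp5d did not pass without the iron positive library of 3R or 4R, nor Ptpn6 without that of 4R.

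The Fcer1g chain also serves receptors that do not bind immunoglobulin. Of 10 such receptors 7 could be tested, and 6 of the 7 fold changes were positive (median 0.35), opposite in sign to Fcer1g, although only Clec4d passed. Clec4d, a C-type lectin, measured 52.6, 31.9, 33.3 and 36.6 CPM in iron negative and 301, 51.4, 229.6 and 97.8 CPM in iron positive libraries. It was higher in 4 of 4 tags, by a widely varying amount, with 1 iron positive library inside the iron negative range (2.14 ± 0.51, adjusted p = 0.0295), and it did not pass without the iron positive library of 4R or without any iron negative one. Scaled to macrophage markers 4 of the 7 passed, all higher, in a fit that called 17.3% of all genes higher. That scaling moved the median of all genes to 0.26 and that of these 7 to 0.59. The neutrophil markers summed to 45.4 to 64.5 TPM in iron negative and 83.6 to 189.8 TPM in iron positive libraries, with 3 of 6 tested markers higher and Ly6g, Cxcr2, Camp and Ngp under 1 TPM throughout. Their part in the Clec4d result was not tested. Tyrobp, the other ITAM adaptor of myeloid cells, was at -0.30 ± 0.10 (adjusted p = 0.0786) and passed with the replicate block (adjusted p = 0.0282), and Hcst was at -0.02 ± 0.14 (adjusted p = 0.932).

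**Figure D5:**
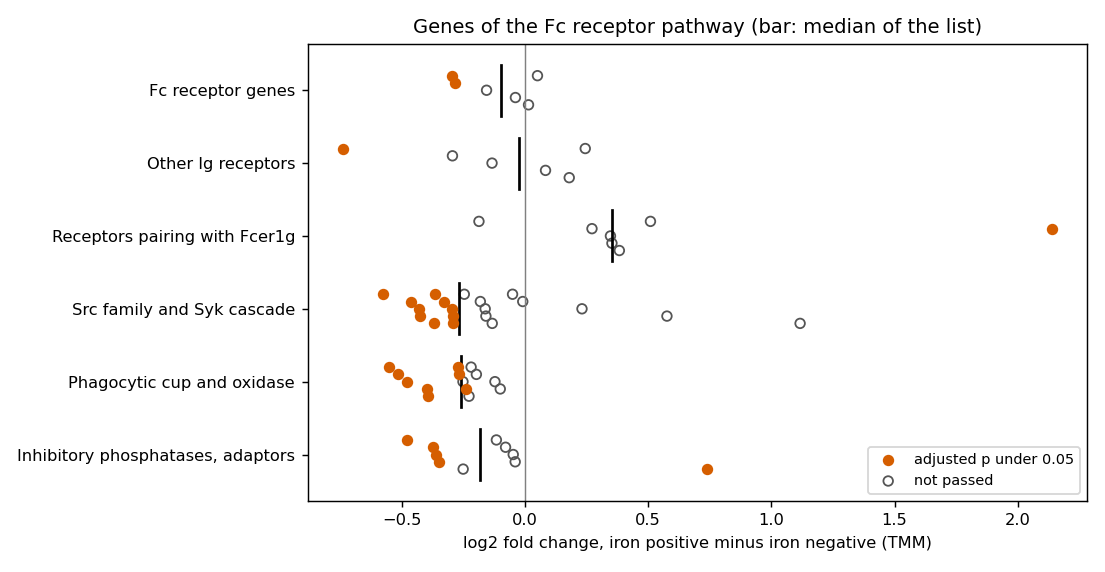
Log2 fold changes (x axis, iron positive minus iron negative, TMM scaling) of the tested genes in the Fc receptor set and 5 lists of its pathway (rows), with filled points for genes that passed (adjusted p under 0.05), open points for the rest and a bar at each median. The kinase cascade and phagocytic cup lie mostly left of 0 (medians -0.27 and -0.26), whereas receptors that pair with Fcer1g lie mostly right of it (median 0.35).

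Among other immunoglobulin receptors and Fc receptor-like genes, 6 of 13 could be tested and 1, of the Fc receptor-like kind, passed. Fcrls, an Fc receptor-like molecule of mouse macrophages and microglia, measured 1187, 1111, 1079.6 and 1269 CPM in iron negative and 682, 702, 498 and 905 CPM in iron positive libraries, without overlap. It fell by 0.74 ± 0.16 on the log2 scale (adjusted p = 0.0254), and the value after scaling to macrophage markers was -0.48 (adjusted p = 0.0617). The alpha and beta chains of the high-affinity receptor for immunoglobulin E, Fcer1a and Ms4a2, were among the genes too low to test, with mean levels of at most 0.0455 CPM in either fraction. Of the mast cell and basophil markers, Cpa3, Mcpt4, Mcpt8, Tpsb2, Tpsab1, Cma1 and Prss34 were under 1 TPM in every library. The other 3 (Kit, Gata2 and Hdc) were higher in the iron positive fraction in the main fit. None of the 3 passed with limma voom or effective length offsets. The same held without the iron positive library of 4R or when any iron negative library was left out. The list summed to 2.71 to 6.88 TPM in iron negative and 6.23 to 30.03 TPM in iron positive libraries. The sum was highest in iron positive 3R and 4R, which also held the most endothelial and fibroblast markers. Whether these 3 genes stand for mast cells was not tested. Of 12 immunoglobulin chains only Ighm could be tested, and it fell by 1.03 ± 0.17 (adjusted p = 0.0173), from 47.9 to 66.8 CPM to 21.6 to 35.3 CPM.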

How the data were processed

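Bulk RNA-seq of 8 libraries was used, 4 per fraction. Per the submitters' processing notes, kallisto 0.46.2 and mm10 were used, and which transcript release was indexed is not given here. The tables the authors deposited hold estimated counts for each transcript (not whole, not normalized), TPM, and transcript length and effective length as other values, per the file headers, 1 table per library. GENCODE vM21 was used to assign the 119414 transcripts to genes, by identifier without version. Of these 116728 matched, and the 2686 unmatched ones (0.888% to 0.961% of a library's estimated counts) were left out. Estimated counts and TPM were summed over 35975 genes, without use of strand, and the counts rounded.

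Genes were tested with edgeR 4.0.16 under R 4.3.3 (quasi-likelihood F-test, fraction as the only term), after filterByExpr (13343 genes), TMM and Benjamini-Hochberg adjustment over all genes tested, at a threshold of 0.05. All adjusted p-values come from it unless another test is named. SEs are the coefficient over the square root of F, which is approximate. Ratios were tested with exact permutation tests over 70 assignments (scipy 1.17.1). Same-tag libraries deviated together from their fraction means, with correlations across genes of 0.53 (3L), 0.52 (3R), 0.27 (4R) and 0.30 (5L), all above the limit of 0.1. The highest correlations with a different tag, 0.13, 0.21, 0.26 and 0.23, also exceeded that limit, so it does not single out partners. The same-tag value was the higher one for each tag, by little for 4R. The tags in the labels were taken to pair the libraries, and a fit with the tag as a block was made. No pair of replicates agreed within counting noise (chi-square per gene 9.62 to 109). The fit was tested on simulated data. DESeq2 1.42.0, voom and trend fits of limma 3.58.1, other scalings and filters, and fits without each library were alternatives.

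The genes and the gene lists were chosen with earlier results of these data known. The text names all 6 receptors, per pathway list up to 4 genes per direction with the smallest adjusted p among those that passed (the 2 most abundant where none did), the 3 most correlated genes per receptor (at least 5 CPM on average, prior count 2), and transcripts with at least 5% of a gene's TPM; Syk, Kit, Gata2, Hdc and genes listed as low were added after their values were seen. Some genes of the lists are not reported here by name. Sequences came from GENCODE and RefSeq on GRCm38, and motifs were found with Python 3.11.15.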

Additional observations from a re-analysis of the deposited data

How the results depend on the processing

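The tag as a replicate block changed no call among the receptors (2 lower) and gave 30 lower and 3 higher pathway genes. Of the receptors, 2 were lower in the main fit; 1 was lower with relative log expression size factors (Fcgr1), library totals (Fcer1g) or effective length offsets (Fcgr1), and 0 with macrophage scaling, limma voom, no low count filter, a filter at 10 CPM in 4 libraries, limma on log2(TPM + 1) or log2(TPM + 0.1), protein-coding transcripts only, or tags 3L and 5L only, an alternative chosen after seeing the data. Those 2 genes had an unadjusted p under 0.05 in each of these fits except macrophage scaling and the 2-tag subset. DESeq2 kept both (adjusted p = 0.00338 and 0.00235), so the adjusted p ranged up to 0.758 for Fcgr1 and 0.661 for Fcer1g. Leave-one-out fits gave 0 to 2. Pathway genes numbered 7 higher and 1 lower with macrophage scaling, which called 17.3% of all genes higher and 0.187% lower. With voom they numbered 0 and 13, beside 189 higher and 273 lower of all 13343 genes. With the 2 tags they numbered 0 and 0, beside 321 higher and 7 lower of all 13422 genes. When a library was left out they ranged over 0 to 5 and 0 to 27. The activating to inhibitory ratio was -0.16 on TMM-scaled CPM against -0.11. The cause was not tested.

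Signs turned for genes that did not pass: Fcgr2b without iron positive 4R (-0.060; 0.15 at the other end, without 3R); Fcgr3 with library totals (0.013), macrophage scaling (0.21), the 10 CPM filter (0.011) and without iron positive 3R (0.049; lowest -0.14, without 4R); Fcgr4 with macrophage scaling (0.10); and Fcgrt without iron negative 3L (-0.055) or 3R (-0.034) and without iron positive 4R (-0.025) or 5L (-0.047), with a highest value of 0.12 without iron positive 3R. With 4 libraries per fraction an exact permutation test cannot go below 0.0286, and the sign-flip test over 4 tags cannot go below 0.125, so the blocked ratios are values only. Depth did not limit the receptors, whereas 23 of the 84 pathway genes were too low to test.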
